A study of Mus musculus with 10 samples.

Results

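Mitochondrial ribosomal proteins were taken as the protein-coding rows of the expression table whose mouse gene symbol, assigned from the Ensembl identifier, starts with Mrpl (large subunit) or Mrps (small subunit). This gave 77 genes of the 30074 rows, 48 Mrpl and 29 Mrps, on 17 chromosomes. All 77 reached the minimum of 0.5 FPKM in mean that a gene needed to be tested, so none was left out. Of the 78 such genes in the annotation, Mrpl53 was not among the rows analysed here. RNA had been sequenced from whole hearts of wild-type male C57BL/6 mice aged 8 to 12 weeks, of about 25 g, all of which had received lipopolysaccharide (LPS, bacterial endotoxin) into the peritoneum as a model of septic cardiomyopathy. In the LPS+ART group (n = 5) artesunate, an endoperoxide antimalarial, was given at 50 mg/kg 10 min before LPS and once more 4 h after it, and the LPS+Vehicle group (n = 5) received a vehicle whose make-up is not described. Heart function was read 24 h after LPS, and the hour at which hearts were taken for RNA is not given. Hearts without LPS were not analysed here, so every value compares hearts that had all received endotoxin.

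The mitochondrial ribosome sits inside the organelle and translates the few messenger RNAs of mitochondrial DNA, which encode core subunits of the respiratory chain and of ATP synthase. All its proteins are encoded in the nucleus, made in the cytosol and imported, while its ribosomal RNAs are transcribed from mitochondrial DNA. Some of the proteins have counterparts in bacterial ribosomes and the others are particular to mitochondria. The heart is rich in mitochondria, and in humans inherited faults in several of these genes, among them MRPL3, MRPL44 and MRPS22, are known to cause disease that can include cardiomyopathy.

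LPS+ART libraries held 30684056 to 36679402 assigned reads, LPS+Vehicle libraries 29980900 to 54222272, and a member had 152 to 6662 reads in a library. Some libraries stood apart. LPS+ART replicates 3 and 4 differed from the other LPS+ART libraries by a mean chi-square of 70.6 to 99.2 per gene. Among replicates 1, 2 and 5 it was 45.1 to 50.1. Over the members alone, LPS+ART replicate 1 stood apart, at 20.1 to 43.9 from replicates 2 to 5. Those differed from each other by 4.85 to 14.7 over the members. LPS+Vehicle replicates 2 and 5 were nearly alike, at 3.57 per gene against 28.0 to 85.5 for the other vehicle pairs, so counts are also given with that pair averaged. The median log2 fold change of all 13314 genes tested was -0.27 with the values as deposited and 0.02 after median-ratio scaling, which equalises the typical gene between libraries. The main counts are therefore given in both versions, and statements that groups did or did not overlap are for the values as deposited unless scaling is named. FPKM (reads per gene, corrected for the gene's length and the library's size) is a level. Fold changes are differences of log2(FPKM + 1), and this scale makes the change of a weakly expressed gene look smaller than it is.

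Many large subunit genes and many small subunit genes were lower in LPS+ART hearts than in LPS+Vehicle hearts with the values as deposited, in shares near that of all genes. Of the 48 Mrpl genes, limma called 25 lower and 2 higher (Benjamini-Hochberg adjusted p under 0.05 over all genes), and of the 29 Mrps genes it called 14 lower and 0 higher. Among all genes tested, 52.9% were called lower and 11.8% higher. At an unadjusted p under 0.05, 0 Mrps genes were higher and 16 lower. Limma-voom on recovered reads, which also scaled the libraries to each other (TMM), called 9 Mrps genes higher. The median of all genes was then 0.008, and the share of all genes called was not counted for that run. The median log2 fold change was -0.26 over Mrpl and -0.22 over Mrps genes, which is 0.01 and 0.05 above the median of all genes. After median-ratio scaling, 12 Mrpl genes were lower and 19 higher, and 1 Mrps gene was lower and 9 were higher, where 30.3% of all genes were lower and 29.9% higher. The scaled medians were 0.09 over Mrpl and 0.12 over Mrps genes. The sign of both medians thus turned with the scaling.

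The libraries that stood apart shifted these counts. Without LPS+ART replicate 1, 30 Mrpl genes were lower and 1 higher, and 16 Mrps genes were lower and 0 higher. The medians were then -0.32 over Mrpl, -0.27 over Mrps and -0.29 over all genes. The share of all genes called was not counted for that run. Without LPS+ART replicates 3 and 4, 21 Mrpl genes were lower and 6 higher, and 9 Mrps genes were lower and 1 higher, where 48.5% of all genes were lower and 11.8% higher. The medians were then -0.14 over Mrpl, -0.14 over Mrps and -0.23 over all genes. With scaling as well, 7 Mrpl genes were lower and 18 higher, and 1 Mrps gene was lower and 11 were higher, where 28.0% of all genes were lower and 27.7% higher. With LPS+Vehicle replicates 2 and 5 averaged, 21 Mrpl genes were lower and 1 higher, and 13 Mrps genes were lower and 0 higher, where 50.0% of all genes were lower and 10.7% higher. After scaling these were 10 and 18 Mrpl and 1 and 8 Mrps genes, where 28.3% of all genes were lower and 27.3% higher. When single libraries were left out of the values as deposited, 1 to 5 Mrpl genes were higher. There were 5 without LPS+ART replicate 3, 2 without LPS+Vehicle replicate 4 and 1 without each of the other libraries. The shares of all genes called were not counted for these runs. In these 5 against 5 libraries p-values measure the spread between libraries, since the labels do not say more of the animals than the group sizes.

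Across both subunits, 13 genes were lower with the values as deposited, after scaling and also after cyclic loess, which removes any trend of the fold change with level. These were Mrpl47, Mrpl49, Mrpl45, Mrpl34, Mrpl44, Mrpl10, Mrpl19, Mrpl24, Mrpl36, Mrpl39, Mrpl1 and Mrpl43 in the large subunit and Mrps17 in the small subunit. Mrpl42 and Mrpl48 were higher under all of these. Another 21 genes, 13 Mrpl and 8 Mrps, were not called as deposited and were higher after both scaling and loess. The remaining members changed with the treatment of the values or were not called. How many of all genes kept a call under all of these treatments was not counted, so such calls cannot be read as particular to the members. After scaling alone, 12 Mrpl genes and 1 Mrps gene were lower, and 19 Mrpl and 9 Mrps genes were higher. Of all genes tested, 30.3% were then lower and 29.9% higher.

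**Figure D1:**
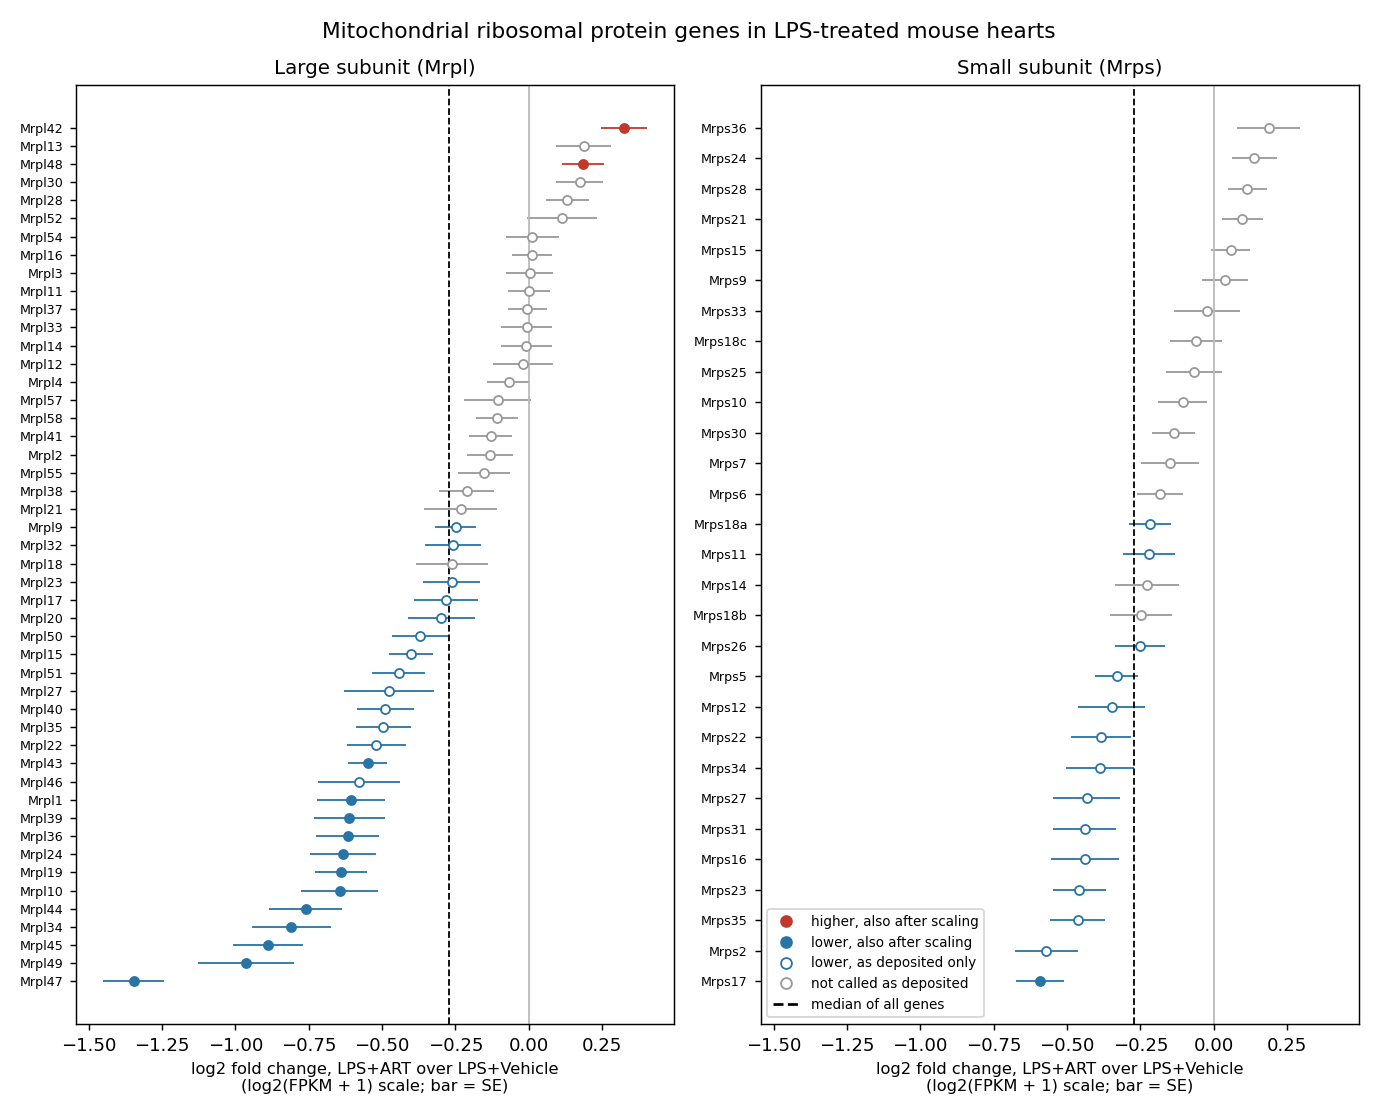
Log2 fold change (LPS+ART over LPS+Vehicle, log2(FPKM + 1) scale) of each of the 48 Mrpl genes (left) and 29 Mrps genes (right), with bars for the standard error. Filled points were called as deposited and after median-ratio scaling, open blue points as deposited only, grey points not as deposited, and the dashed line is the median of all genes at -0.27; the falls reach further in the large subunit, to -1.35 for Mrpl47.

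Mrpl47, the counterpart of a bacterial protein near the exit of the tunnel through which the new peptide leaves, showed the largest fall. Its level was 2.02, 2.13, 1.26, 1.34 and 1.94 FPKM in LPS+ART replicates 1 to 5, against 6.30, 6.06, 5.96, 5.19 and 6.06 FPKM in LPS+Vehicle replicates 1 to 5. Every LPS+ART library was below every LPS+Vehicle library, and replicates 3 and 4 were the lowest of LPS+ART. The mean was 1.74 ± 0.406 FPKM in LPS+ART and 5.91 ± 0.426 FPKM in LPS+Vehicle (n = 5 each, SD), 3.40-fold lower (limma log2 fold change -1.35, SE 0.10, adjusted p = 4.41e-06; -1.06 after scaling). Of its exon bases, 24.2% also belong to exons of Actl6a and Ndufb5 on the opposite strand. Those genes were at 3.67 ± 0.417 and 29.95 ± 2.38 FPKM in LPS+ART and 4.63 ± 0.108 and 26.8 ± 1.61 FPKM in LPS+Vehicle. The strand setting of the counting is not given in the sources used here, so reads of overlapping genes cannot be told apart.

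Mrpl45, which in mammals lies at the tunnel exit and helps to hold the ribosome at the inner membrane, had 10.8, 8.25, 7.29, 5.89 and 7.79 FPKM in LPS+ART replicates 1 to 5, against 15.6, 15.6, 16.1, 14.6 and 15.5 FPKM in LPS+Vehicle replicates 1 to 5. The groups did not overlap, and the fall was 1.93-fold (limma log2 fold change -0.89, SE 0.12, adjusted p = 6.70e-05). Its annotated exons overlap no other gene. Mrpl49, a mitochondria-specific protein of the large subunit, had 10.1, 6.53, 4.67, 4.69 and 6.71 FPKM in LPS+ART replicates 1 to 5, against 14.9, 12.6, 13.98, 11.98 and 13 FPKM in LPS+Vehicle replicates 1 to 5. LPS+ART replicate 1 came closest to the vehicle libraries without reaching them (limma log2 fold change -0.96, SE 0.16, adjusted p = 3.43e-04).

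Mrpl34, the counterpart of a small bacterial protein buried in the ribosomal RNA, had 23.4, 16.9, 17.4, 15.5 and 16.3 FPKM in LPS+ART replicates 1 to 5, against 33.02, 33.5, 38.8, 23.8 and 31.7 FPKM in LPS+Vehicle replicates 1 to 5. The highest LPS+ART library, replicate 1, almost met the lowest vehicle library, replicate 4 (limma log2 fold change -0.81, SE 0.13, adjusted p = 2.93e-04). Mrpl44, which has a ribonuclease III-like fold, averaged 11.5 ± 2.54 FPKM in LPS+ART and 19.8 ± 1.58 FPKM in LPS+Vehicle (n = 5 each, SD), and the groups did not overlap (limma log2 fold change -0.76, SE 0.12, adjusted p = 2.58e-04). Its overlapping neighbour Wdfy1, with which it shares 7.66% of its exon bases, moved the other way, at 7.26 ± 1.66 FPKM in LPS+ART and 3.27 ± 0.587 FPKM in LPS+Vehicle. Mrpl1, Mrpl10, Mrpl19, Mrpl24, Mrpl36, Mrpl39 and Mrpl43 fell by 0.55 to 0.64 on the log2 scale as deposited and by 0.21 to 0.35 after scaling. Of these, only Mrpl39 had libraries of both groups in the same range as deposited, while after scaling the groups of Mrpl19 alone stayed apart. Several overlap exons on the opposite strand, so their values are uncertain. Mrpl19 shares 36.0% of its exon bases with Gcfc2 and Mrpl43 33.4% with Twnk. Mrpl24 shares 26.3% with Rrnad1, Mrpl10 14.1% with Gm11574 and Mrpl36 2.58% with Ndufs6. Mrpl1 and Mrpl39 share none.

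The stalk of the large subunit, where translation factors dock, held genes with different calls. Mrpl10, which anchors the stalk, averaged 12.6 ± 2.95 FPKM in LPS+ART and 19.9 ± 1.55 FPKM in LPS+Vehicle (limma log2 fold change -0.64, SE 0.13, adjusted p = 0.00111). Mrpl12, which forms the stalk itself and was the most abundant large subunit transcript per length, had 61.99, 46.2, 41.01, 42.8 and 47.96 FPKM in LPS+ART replicates 1 to 5, against 46.5, 48.99, 49.98, 50.5 and 44.8 FPKM in LPS+Vehicle replicates 1 to 5. LPS+ART replicate 1 was far above the vehicle libraries, while replicates 3 and 4 were below all of them. Of the exon bases of Mrpl12, 13.1% are shared with Gm16755 on the opposite strand, so its values are uncertain. Mrpl12 was not called as deposited (-0.02, adjusted p = 0.880, limma), was higher after scaling (0.37, adjusted p = 0.00471, limma) and not called after loess (0.10). Mrpl11, at the base of the stalk, averaged 9.66 ± 1.03 FPKM in LPS+ART and 9.62 ± 0.173 FPKM in LPS+Vehicle, with a log2 fold change of 0.00 as deposited and 0.36 after scaling.

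Mrpl42, a mitochondria-specific protein of the large subunit, was the clearest rise. It had 41.1, 39.1, 32.5, 34.95 and 34.3 FPKM in LPS+ART replicates 1 to 5, against 29.8, 27.6, 30.9, 28.8 and 26.9 FPKM in LPS+Vehicle replicates 1 to 5. Every LPS+ART library was above every vehicle library, at 1.26-fold the vehicle mean (limma log2 fold change 0.32, SE 0.08, adjusted p = 0.00331; 0.71 after scaling). Among all genes tested, 7.54% were higher and 42.5% lower with groups that did not overlap, and among members 1 Mrpl gene was higher and 20 Mrpl and 5 Mrps genes were lower in that way. After scaling, 16 Mrpl and 8 Mrps genes were higher and 3 Mrpl and 1 Mrps gene lower without overlap, where 21.5% of all genes were higher and 23.1% lower. The groups of Mrpl47, Mrpl45, Mrpl19, Mrps17 and Mrpl42 stayed apart with scaling, and those of Mrpl49, Mrpl34, Mrpl44 and Mrpl10 did not. Mrpl48, of the central protuberance, averaged 4.21 ± 0.424 FPKM in LPS+ART and 3.58 ± 0.172 FPKM in LPS+Vehicle with overlapping groups (limma log2 fold change 0.18, adjusted p = 0.0412). Its call as deposited was lost with the vehicle pair averaged (adjusted p = 0.084, limma) and without any single library other than LPS+ART replicate 3 and LPS+Vehicle replicate 4. After scaling its log2 fold change was 0.49 (limma adjusted p = 1.82e-04). Mrpl48 shares 8.68% of its exon bases with Rab6a on the opposite strand.

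Several large subunit genes were at nearly the same level in both groups as deposited. Mrpl3, close to the site of peptide bond formation, averaged 7.83 ± 0.555 FPKM in LPS+ART and 7.83 ± 0.887 FPKM in LPS+Vehicle. Mrpl28, the next most abundant Mrpl transcript per length after Mrpl12, averaged 36.5 ± 2.48 FPKM in LPS+ART and 33.3 ± 2.30 FPKM in LPS+Vehicle and was not called (0.13, limma adjusted p = 0.129), but was higher without LPS+ART replicates 3 and 4 (limma adjusted p = 0.039) and after scaling (0.51, limma adjusted p = 8.16e-05). Mrpl58, a peptidyl-tRNA hydrolase built into the large subunit that rescues stalled ribosomes, and Mrpl41 had log2 fold changes of -0.11 and -0.13 as deposited and 0.22 and 0.25 after scaling. Mrpl41 was called lower without LPS+ART replicate 1 (limma adjusted p = 0.043).

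**Figure D2:**
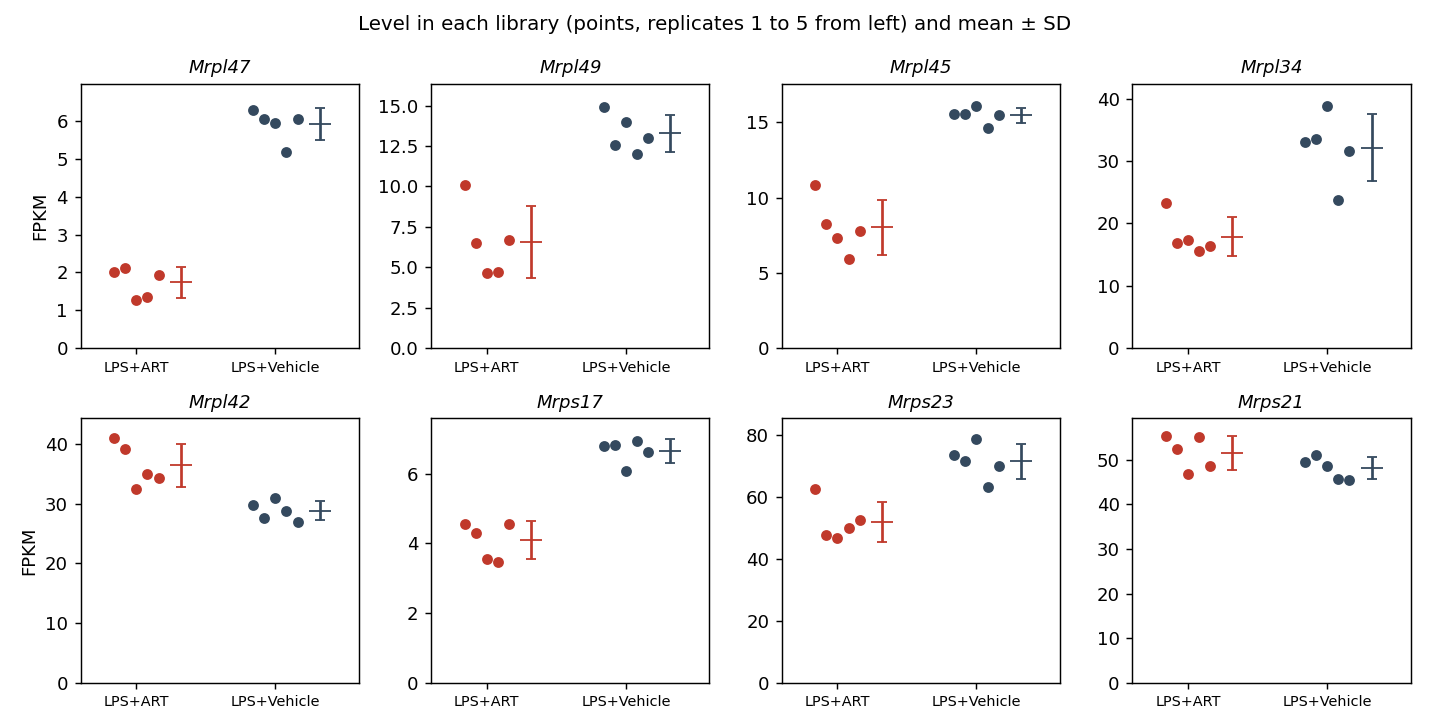
FPKM of 8 members in each library (points, replicates 1 to 5 from left to right), with the mean and SD beside each group of 5. The LPS+ART libraries of Mrpl47, Mrpl49, Mrpl45, Mrpl34, Mrps17 and Mrps23 lie below all LPS+Vehicle libraries, those of Mrpl42 lie above them, and those of Mrps21 overlap with them.

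In the small subunit, Mrps17, the counterpart of a bacterial protein that binds the body of the small subunit RNA, was the gene called lower under every scaling. Its level was 4.56, 4.30, 3.55, 3.46 and 4.56 FPKM in LPS+ART replicates 1 to 5, against 6.78, 6.81, 6.07, 6.92 and 6.62 FPKM in LPS+Vehicle replicates 1 to 5. The groups did not overlap (limma log2 fold change -0.59, SE 0.08, adjusted p = 8.67e-05; -0.26 after scaling). Mrps23, a mitochondria-specific protein and the most abundant member of all per length, had 62.5, 47.6, 46.6, 49.9 and 52.6 FPKM in LPS+ART replicates 1 to 5, against 73.3, 71.6, 78.8, 63.3 and 69.9 FPKM in LPS+Vehicle replicates 1 to 5. LPS+ART replicate 1 lay just under LPS+Vehicle replicate 4. Its fall was called as deposited (-0.46, SE 0.09, limma adjusted p = 9.54e-04) and after loess (-0.37), but not after median-ratio scaling (-0.07, limma adjusted p = 0.443).

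Mrps2 and Mrps35 had groups that did not overlap, at 7.75 ± 1.45 and 2.76 ± 0.417 FPKM in LPS+ART and 11.9 ± 0.705 and 4.18 ± 0.448 FPKM in LPS+Vehicle. Their calls ended with median-ratio scaling (limma adjusted p = 0.0523 and 0.161). After loess Mrps2 was called lower (-0.26, limma adjusted p = 0.0269) and Mrps35 was not. Mrps12, which lines the decoding site, and Mrps16, Mrps22 and Mrps34, whose human forms are linked to faults of respiratory chain assembly, had log2 fold changes of -0.35, -0.44, -0.38 and -0.39, all called lower as deposited and none after scaling (0.02, -0.11, -0.08 and -0.05). Without LPS+ART replicates 3 and 4, Mrps12 and Mrps34 were not called (adjusted p = 0.088 and 0.067, limma). Mrps34 shares 77.8% of its exon bases with Nme3 and Mapk8ip3, so its value is uncertain. Mrps25 shares 69.8% with Nr2c2 and is uncertain as well.

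Mrps21, the counterpart of a bacterial protein at the messenger RNA exit of the small subunit, had 55.3, 52.3, 46.8, 54.98 and 48.5 FPKM in LPS+ART replicates 1 to 5, against 49.6, 51.1, 48.6, 45.6 and 45.4 FPKM in LPS+Vehicle replicates 1 to 5. The groups overlapped, and the gene was called higher only after scaling (0.10 as deposited and 0.48 scaled, limma adjusted p = 0.237 and 2.86e-04). Mrps9 and Mrps33 were the small subunit genes nearest to no difference as deposited, at 0.04 and -0.02 on the log2 scale. The 3 paralogs of bacterial S18, which occupy different places in the ribosome, were all lower in mean. Mrps18a, which is built into the large subunit in spite of its name, was called lower as deposited (-0.22, limma adjusted p = 0.0182), whereas Mrps18b (-0.25) and Mrps18c (-0.06) were not. The call of Mrps18a was lost without LPS+ART replicates 3 and 4 (limma adjusted p = 0.066) and without LPS+Vehicle replicate 1 (limma adjusted p = 0.053), and Mrps18b was called lower without LPS+ART replicate 5 (limma adjusted p = 0.028). All 3 were above 0 after scaling (0.14, 0.11 and 0.28). Mrps18b shares 30.5% of its exon bases with Gm16279 and Mrps18c 23.2% with Gm43511, so both values are uncertain. Mrps36, now known as a part of the 2-oxoglutarate dehydrogenase complex, averaged 24.8 ± 2.997 FPKM in LPS+ART and 21.7 ± 2.84 FPKM in LPS+Vehicle and was not called (0.19), but was higher after scaling (0.56) and without LPS+ART replicate 3 (limma adjusted p = 0.046).

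Levels of the subunits were compared within each library, where a common scaling factor cancels apart from the pseudocount of 1. The mean log2(FPKM + 1) over Mrpl genes exceeded that over Mrps genes by 0.363, 0.353, 0.312, 0.291 and 0.342 in LPS+ART replicates 1 to 5, and by 0.409, 0.434, 0.449, 0.395 and 0.434 in LPS+Vehicle replicates 1 to 5. Every LPS+ART library was below every vehicle library. The group means were 0.332 ± 0.030 in LPS+ART and 0.424 ± 0.022 in LPS+Vehicle (n = 5 each, SD), a difference of -0.09 that ranged from -0.12 after loess to -0.06 without LPS+ART replicates 3 and 4 and with scaling. With Mrps18a and Mrps30 moved to the large subunit, where the proteins reside, and Mrps36 left out, the difference was -0.07. No p is given, since this is a score over chosen genes. As deposited, the lower quartile of log2 fold changes was -0.56 over Mrpl and -0.39 over Mrps genes. The upper quartile was -0.008 over Mrpl and -0.060 over Mrps genes. The medians were -0.26 and -0.22, and 0.09 and 0.12 after scaling. The difference of the means therefore does not describe every part of the large subunit. In the LPS+ART group, mean log2(FPKM + 1) ran from 3.31 to 3.71 over Mrpl and from 2.997 to 3.35 over Mrps genes, with replicate 3 lowest and replicate 1 highest in each. In LPS+Vehicle the ranges were 3.69 to 3.85 and 3.29 to 3.40.

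**Figure D3:**
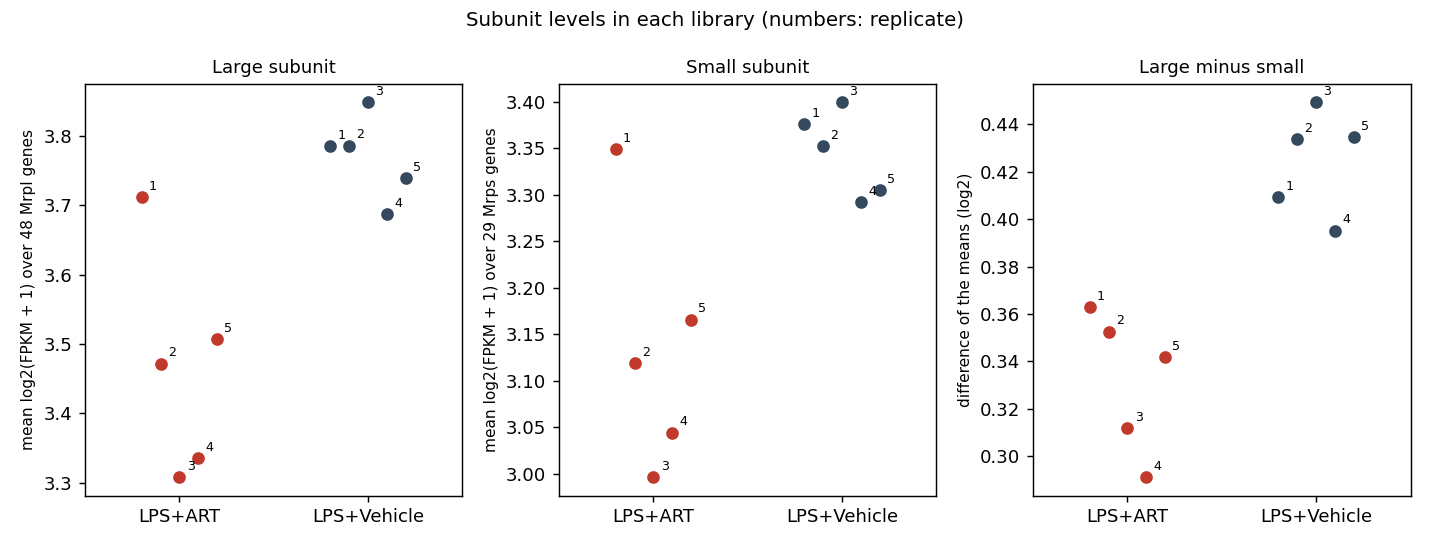
Mean log2(FPKM + 1) over the 48 Mrpl genes (left) and the 29 Mrps genes (middle), and the difference between these means (right), with a point for each library and its replicate number. The axes do not start at 0; LPS+ART replicate 1 lies beside the vehicle libraries for each subunit, while the difference separates the groups, at 0.291 to 0.363 in the LPS+ART libraries and 0.395 to 0.449 in the LPS+Vehicle libraries.

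The spread of the members was wider among LPS+ART libraries than among vehicle libraries. The median coefficient of variation of a member was 14.9% in LPS+ART and 6.61% in LPS+Vehicle. It was larger in LPS+ART for 66 of 77 members. The same count was not made over all genes, so this cannot be read as particular to the members. The nearly alike LPS+Vehicle replicates 2 and 5 both entered the vehicle spread. As deposited, 45 of 77 members were lower in both LPS+ART replicates 3 and 4 than in all of replicates 1, 2 and 5, and 0 were higher. The share lower, 58.4%, compares with 36.3% of all genes tested, where 1398 genes or 10.5% were higher. After scaling the counts were 20 lower and 1 higher. These are 26.0% of members against 22.0% of all genes lower, and 1.30% of members against 21.5% of all genes higher.

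For the counts that follow, 52.9% of all genes were lower and 11.8% higher as deposited, and 30.3% lower and 29.9% higher after scaling. By structural class, the mitochondria-specific small subunit proteins had the highest share lower as deposited, 7 of 10. Their median log2 fold change was -0.38, but 0 of 10 were lower after scaling. Of 16 small subunit genes with a bacterial counterpart, 6 were lower as deposited, and after scaling 1 was lower and 7 were higher. Of 30 large subunit genes with a bacterial counterpart, 16 were lower as deposited, and after scaling 7 were lower and 12 higher. Of 20 mitochondria-specific large subunit genes, 10 were lower and 2 higher as deposited, and 5 were lower and 7 higher after scaling. The counts were also split by level. Of the 38 members at 10 FPKM or more, 15 were lower and 1 higher as deposited, and 6 lower and 20 higher after scaling. Of the 39 members below 10 FPKM, 24 were lower and 1 higher as deposited, and 7 lower and 8 higher after scaling. Long annotated exons lower an FPKM: Mrpl33 has 7326 merged exon bases and Mrpl34 607, so levels of genes that differ so much in length are only roughly comparable.

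**Figure D4:**
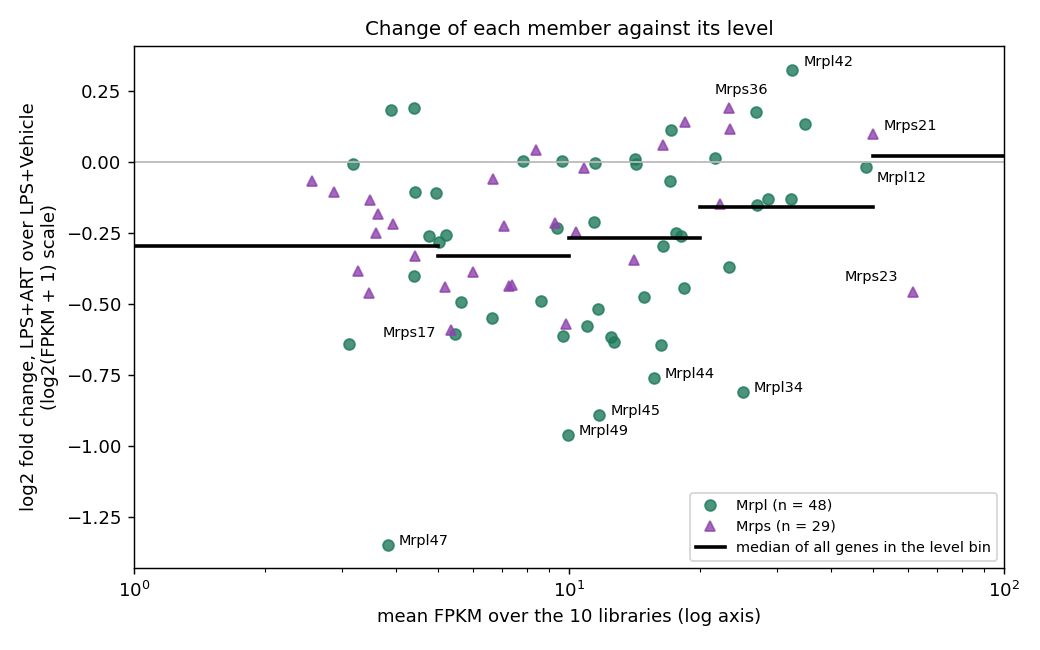
Log2 fold change (LPS+ART over LPS+Vehicle) of each Mrpl gene (circles) and Mrps gene (triangles) against its mean FPKM over the 10 libraries on a log axis. Black lines are the median of all genes tested in the same range of level, from -0.30 below 5 FPKM to 0.02 at 50 FPKM and more; Mrps23, with the highest level, and Mrpl34 lie well below these lines and Mrpl42 above.

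Promoters were compared because the nuclear factors NRF1, the ETS family factor GABP and YY1 are known regulators of nuclear genes for mitochondrial proteins. RefSeq windows of 250 bases before to 50 after the gene's start (build GRCm38.p6) were matched by symbol for 68 of the 77 members. On either strand, the letters GCGC, any base and TGCGC in a row (NRF1) were found in 13 of the 68 windows or 19.1%, against 4.78% of 27025 windows of all genes and 10.47% of those of genes tested. CCGGAAGT (ETS) was in 16.2% of member windows, against 4.00% of all and 8.55% of tested. AAGATGGC (YY1) was in 17.6% of member windows, against 2.88% of all and 4.86% of tested. GGGCGGGG (SP1) was in 23.5% of member windows, against 17.8% of all and 33.7% of tested. Members with and without a match had median log2 fold changes of -0.25 and -0.25 for NRF1, -0.26 and -0.23 for ETS and -0.24 and -0.25 for YY1. Among members, matches of NRF1, ETS and YY1 did not overlap each other, apart from a pair of NRF1 matches in Mrps26.

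Promoters of members that the results turn on are shown 5′ to 3′, with matches of NRF1, ETS or YY1 in capitals. Mrpl47 (chr3:32736706-32737005, minus strand), the gene that fell most, holds none of them in this window. Mrpl45 (chr11:97315466-97315765, plus strand) holds 3 NRF1 matches, the most of any member, and also fell. Mrpl42 (chr10:95501900-95502199, minus strand), which rose, holds a YY1 match just after the start. Mrpl49, whose window is not printed, fell and also holds a YY1 match just after its start. Mrpl12 (chr11:120484387-120484686, plus strand), not called as deposited, holds an NRF1 match. Mrps17 (chr5:129715247-129715546, plus strand), the small subunit gene lower under every scaling, holds none in capitals and a single SP1 match.
Mrpl47: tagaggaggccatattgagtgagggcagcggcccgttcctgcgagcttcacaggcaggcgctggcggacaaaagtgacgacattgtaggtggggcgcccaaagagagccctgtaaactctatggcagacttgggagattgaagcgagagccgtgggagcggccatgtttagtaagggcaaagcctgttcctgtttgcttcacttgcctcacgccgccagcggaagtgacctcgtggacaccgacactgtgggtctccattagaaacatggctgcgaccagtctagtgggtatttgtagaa
Mrpl45: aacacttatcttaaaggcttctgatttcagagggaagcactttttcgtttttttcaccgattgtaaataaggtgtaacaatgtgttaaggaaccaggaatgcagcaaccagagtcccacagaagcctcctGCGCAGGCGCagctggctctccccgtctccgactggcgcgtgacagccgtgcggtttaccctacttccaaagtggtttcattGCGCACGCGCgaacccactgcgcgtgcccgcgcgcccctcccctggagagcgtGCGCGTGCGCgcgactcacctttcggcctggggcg
Mrpl42: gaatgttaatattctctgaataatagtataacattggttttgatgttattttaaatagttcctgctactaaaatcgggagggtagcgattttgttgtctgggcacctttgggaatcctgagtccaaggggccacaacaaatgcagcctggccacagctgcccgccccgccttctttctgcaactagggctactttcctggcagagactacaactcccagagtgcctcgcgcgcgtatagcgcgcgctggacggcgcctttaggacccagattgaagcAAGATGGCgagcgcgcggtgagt
Mrpl12: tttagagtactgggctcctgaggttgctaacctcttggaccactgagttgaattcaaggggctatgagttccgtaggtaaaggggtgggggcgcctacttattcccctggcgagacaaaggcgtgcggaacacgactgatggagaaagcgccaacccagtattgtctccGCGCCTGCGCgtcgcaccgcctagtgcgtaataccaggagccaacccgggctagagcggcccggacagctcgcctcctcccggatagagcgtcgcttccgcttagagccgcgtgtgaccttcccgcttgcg
Mrps17: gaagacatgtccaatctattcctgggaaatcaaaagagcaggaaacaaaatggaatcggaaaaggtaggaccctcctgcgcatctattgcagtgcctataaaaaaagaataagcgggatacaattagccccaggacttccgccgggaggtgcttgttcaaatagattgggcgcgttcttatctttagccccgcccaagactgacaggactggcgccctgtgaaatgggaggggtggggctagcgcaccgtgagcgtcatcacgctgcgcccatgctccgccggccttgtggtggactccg
A match is a run of letters and not a measured binding site.

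Of the proteins of the ribosome that carry other names, most were not called as deposited. Dap3, a GTP-binding protein of the small subunit, averaged 9.25 ± 0.800 FPKM in LPS+ART and 8.85 ± 0.596 FPKM in LPS+Vehicle. Ptcd3, Chchd1 and Aurkaip1 were likewise not called as deposited, with log2 fold changes of -0.16, 0.18 and 0.02, and after scaling Dap3, Chchd1 and Aurkaip1 were higher. Chchd1 was also higher without LPS+ART replicates 3 and 4 (limma adjusted p = 0.018), and Ptcd3 was lower without LPS+ART replicate 1 (limma adjusted p = 0.038). Gadd45gip1 was called lower as deposited (-0.23, limma adjusted p = 0.0243) and not after scaling or without LPS+ART replicates 3 and 4 (limma adjusted p = 0.13). The call was also lost when LPS+ART replicate 3 or 4 or LPS+Vehicle replicate 1 or 2 was left out (limma adjusted p = 0.056 to 0.066). Its value is uncertain.

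Most of the listed genes that modify the ribosomal RNA or assemble the particle fell as deposited. Of 30 tested, 25 were lower and 0 higher as deposited, and 17 lower and 3 higher after scaling. Their median log2 fold change was -0.53 as deposited and -0.23 scaled. The shares of all genes were 52.9% lower and 11.8% higher as deposited, and 30.3% lower and 29.9% higher after scaling. Mrm1, Mrm2 and Mrm3, methyltransferases of the large ribosomal RNA, had the lowest fold changes of the list on the log2(FPKM + 1) scale. Mrm1 had 1.80, 1.22, 0.784, 0.755 and 1.54 FPKM in LPS+ART replicates 1 to 5, against 4.36, 5.01, 6.76, 4.65 and 4.49 FPKM in LPS+Vehicle replicates 1 to 5. The groups were far apart (limma log2 fold change -1.46, SE 0.15, adjusted p = 1.34e-05). Mrm2 and Mrm3 had log2 fold changes of -1.43 and -1.14. Tfb1m, which methylates the small ribosomal RNA, averaged 0.256 ± 0.132 FPKM in LPS+ART and 1.48 ± 0.321 FPKM in LPS+Vehicle (-0.98, limma adjusted p = 1.56e-05). In mean FPKM Tfb1m was 5.79-fold lower and Mrm1 4.15-fold lower. The LPS+ART mean of Tfb1m was under the minimum of 0.5 FPKM. Tfb1m was tested only because of its level in LPS+Vehicle, so its call and its fold are uncertain.

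Of 15 translation factors tested, 11 were lower and 1 higher as deposited, and 4 lower and 4 higher after scaling. For all genes the shares were 52.9% lower and 11.8% higher as deposited, and 30.3% lower and 29.9% higher after scaling. Mtif2, the initiation factor, averaged 3.98 ± 0.475 FPKM in LPS+ART and 11.1 ± 1.23 FPKM in LPS+Vehicle, 2.78-fold lower (limma log2 fold change -1.28, SE 0.09, adjusted p = 4.06e-06). Mtrf1, of the release factor family, had a log2 fold change of -1.10. Mrrf, which recycles ribosomes after termination, was higher at 9.44 ± 0.894 FPKM in LPS+ART and 7.51 ± 0.308 FPKM in LPS+Vehicle (0.29, limma adjusted p = 0.00422). Tufm, the elongation factor and the most abundant of the list per length, averaged 60.9 ± 8.82 FPKM in LPS+ART and 59.04 ± 4.61 FPKM in LPS+Vehicle and was not called as deposited.

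Of 14 genes for mitochondrial transcription and its nuclear regulators, 8 were lower and 4 higher as deposited, and 6 lower and 6 higher after scaling. All genes tested were 52.9% lower and 11.8% higher as deposited, and 30.3% lower and 29.9% higher after scaling. Polrmt, the mitochondrial RNA polymerase, and Tefm, its elongation factor, had log2 fold changes of -0.94 and -1.17. Ppargc1a, a coactivator of mitochondrial biogenesis, and the nuclear receptor Esrra had -1.68 and -0.82. Myc, Pprc1, Gabpb1 and Nrf1 were higher, with log2 fold changes of 2.13, 1.02, 0.59 and 0.25. All 8 of these genes kept their call after scaling.

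The small mitochondrial ribosomal RNA, mt-Rnr1, had 1420, 1966, 1116, 1157 and 1462 FPKM in LPS+ART replicates 1 to 5, against 5171, 2550, 3114, 2215 and 2537 FPKM in LPS+Vehicle replicates 1 to 5. LPS+Vehicle replicate 1 was far above the rest, and the groups did not overlap (limma log2 fold change -1.09, SE 0.22, adjusted p = 0.00121; -0.70 after scaling). The large ribosomal RNA, mt-Rnr2, averaged 5462 ± 873 FPKM in LPS+ART and 4950 ± 1493 FPKM in LPS+Vehicle and was not called as deposited (0.17, limma adjusted p = 0.410). It was higher without LPS+Vehicle replicate 1 (0.34, limma adjusted p = 0.034) and after median-ratio scaling (0.56, limma adjusted p = 0.0264), but not after loess (-0.18). Libraries were made from RNA selected on oligo-dT, so a ribosomal RNA is measured only as far as it was retained. All mitochondrially encoded transcripts together took 28.0 ± 2.16% of the reads of LPS+ART libraries and 22.8 ± 1.12% of those of LPS+Vehicle libraries, while the 77 members took 0.219 ± 0.024% in LPS+ART and 0.254 ± 0.010% in LPS+Vehicle (n = 5 each, SD). A larger share for some transcripts leaves less for all others in values scaled to the library's size, and its part in the members' lower values as deposited was not tested.

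Cytosolic ribosomal proteins and respiratory complex I subunits served for comparison. Both lists were made from gene symbols. For complex I these start with Ndufa, Ndufb, Ndufc, Ndufs or Ndufv. Ndufa4 and Ndufa4l2 are thus included, and membership of the complex was not checked gene by gene. Of 81 cytosolic ribosomal protein genes tested, 15 were lower and 8 higher as deposited, and 2 lower and 62 higher after scaling, with a median log2 fold change of -0.08 as deposited, 0.30 after scaling and -0.01 after loess. Of 38 complex I genes, 1 was lower and 13 higher as deposited, and 1 lower and 36 higher after scaling, with medians of 0.17, 0.55 and 0.24. The Mrpl and Mrps medians lay below both lists as deposited (-0.26 and -0.22) and after scaling (0.09 and 0.12), but after loess (0.03 and 0.11) they lay above that of the cytosolic ribosomal proteins. All genes had medians of -0.27, 0.02 and 0.02. Of them, 52.9% were lower and 11.8% higher as deposited, and 30.3% lower and 29.9% higher after scaling. No test was made between these lists.

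**Figure D5:**
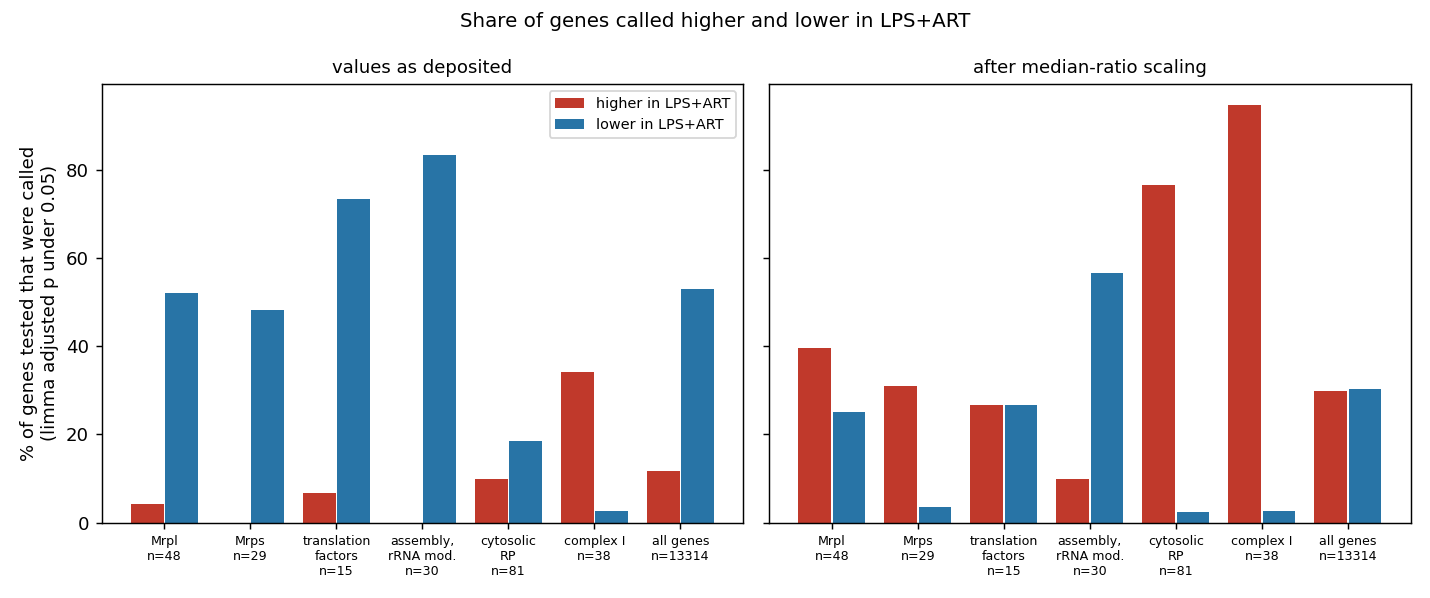
Percentage of genes tested in each list that limma called higher (red) or lower (blue) in LPS+ART against LPS+Vehicle, with the values as deposited (left) and after median-ratio scaling (right). As deposited, 52.9% of all genes were lower, as were 25 of 48 Mrpl and 14 of 29 Mrps genes; 25 of 30 assembly and modification genes were lower, and 17 of 30 after scaling.

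Markers of cell types of the heart also differed, and in bulk tissue fewer cells of a type cannot be told apart from less RNA per cell. The summed level of 7 cardiomyocyte markers was 6786 to 8633 FPKM in LPS+ART hearts and 5808 to 6288 FPKM in LPS+Vehicle hearts, with 3 markers called higher and 1 lower as deposited, the version of all marker calls here. That of 5 macrophage markers was 9.84 to 20.1 FPKM in LPS+ART and 32.2 to 60.3 FPKM in LPS+Vehicle, with all 5 lower. Fibroblast markers summed to 128 to 161 FPKM in LPS+ART and 144 to 262 FPKM in LPS+Vehicle (3 of 5 lower), and those of smooth muscle and pericytes to 115 to 166 FPKM in LPS+ART and 167 to 227 FPKM in LPS+Vehicle (3 of 4 tested lower). Endothelial markers summed to 138 to 212 FPKM in LPS+ART and 136 to 176 FPKM in LPS+Vehicle (1 of 5 higher, 2 lower). Neutrophil markers summed to 27.7 to 222 FPKM in LPS+ART and 23.1 to 57.3 FPKM in LPS+Vehicle (0 of 4 tested called), and erythroid markers to 56.6 to 129 FPKM in LPS+ART and 19.9 to 66.5 FPKM in LPS+Vehicle (4 of 5 higher). Of the lymphocyte markers none reached the minimum level, and Cd3e and Cd3g were under 0.1 FPKM. As deposited, 52.9% of all genes tested were called lower and 11.8% higher. The part of the marker shifts in the members' values was not tested.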

How the data were processed

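RNA of 10 mouse hearts had been captured with oligo-dT beads for paired-end sequencing, per the labels' protocols. The authors deposited FPKM values, a unit judged from the values since the header names only samples; libraries had not been rescaled to each other. The submitters' processing notes name mm9 as build. Not given in the sources used here are aligner, counter, annotation and strandedness. All 10 sample columns matched a sample title. Symbols came from GENCODE M21, in which 29538 of 30074 identifiers were found. With M21 exon lengths, 29005 of these (98.2%) gave whole reads within 0.01 read in every library, all 77 members included, so read numbers could be recovered although M21 belongs to another build.

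The test was limma-trend (limma 3.58.1, R 4.3.3) on log2(FPKM + 1) of the 13314 genes that averaged 0.5 FPKM or more, with group as the only term and Benjamini-Hochberg adjustment over all genes. It was tested on simulated data first. Median-ratio and TMM scaling (trims of 30% and 5%), cyclic loess, limma-voom on recovered reads, pseudocounts of 0.1 and 0.5, no filter, a filter at 1 FPKM, the replicate number as a block, subunits by structure and each library left out were alternatives. Averaging LPS+Vehicle replicates 2 and 5 and leaving out LPS+ART replicates 3 and 4 were tried because these libraries stood apart, and both together with scaling were added after seeing the data. Chi-squares between libraries used recovered reads of genes with at least 50 reads in a pair; mates of a pair may be counted apart, so reads are not independent. A fixed rule named genes of each subunit. It took the 4 called members with the highest and lowest fold changes, the 2 most abundant, the 2 nearest 0, and a role list. Subunits with other names were added. For pathway lists, the called extremes and other genes chosen after their values were seen are named. Further members, among them Mrpl1, Mrpl19, Mrpl46, Mrps11 and Mrps25, were named outside the rule, for their calls, exon overlap or exon length. Members and lists were chosen with earlier results of these data known. Figures used matplotlib 3.10.9 in Python 3.11.15.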

Additional observations from a re-analysis of the deposited data

Results flagged for a closer look

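In 78 groups of 5 libraries, of genes named by the fixed rule and of scores over the members, each library was compared with the others. A single library lay far from the others in 2 groups, where chance gives about 1 in 20. Mrpl34 stood at 23.4 FPKM in LPS+ART replicate 1, where the other LPS+ART libraries had 15.5 to 17.4 FPKM (gap over range 0.763). Mrpl11 stood at 11.4 FPKM in LPS+ART replicate 1, where the other LPS+ART libraries had 8.85 to 9.57 FPKM (gap over range 0.723). Without that library the log2 fold change of Mrpl11 was -0.06.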

How the results depend on the processing

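Counts follow as Mrpl higher and lower, then Mrps higher and lower, then the Mrpl and Mrps median log2 fold changes. Median-ratio scaling gave 19, 12, 9, 1, 0.091 and 0.115. TMM scaling gave 18, 12, 8, 2, 0.060 and 0.085. Limma-voom gave 18, 12, 9, 1, 0.082 and 0.12. Cyclic loess gave 16, 14, 12, 3, 0.033 and 0.11, and a large minus small subunit difference of -0.12. With LPS+Vehicle replicates 2 and 5 averaged and scaled the values were 18, 10, 8, 1, 0.093 and 0.11. With LPS+ART replicates 3 and 4 left out and scaling they were 18, 7, 11, 1, 0.15 and 0.12, with a large minus small difference of -0.061. Unscaled, leaving out these 2 gave 6 Mrpl genes higher, 1 Mrps gene higher and 9 Mrps genes lower. With no filter, with the replicate block and with the vehicle pair averaged, 1 Mrpl gene was higher. Scaling shifts the median of all genes by its construction, and limma-voom included TMM scaling. The median of all genes was 0.008 with limma-voom and -0.007 with TMM. For the other settings the cause was not tested. Leaving out 1 library at a time gave 1 to 5 Mrpl genes higher, 21 to 30 lower, 0 to 1 Mrps genes higher, 12 to 16 lower, medians of -0.32 to -0.21 for Mrpl and -0.27 to -0.17 for Mrps, and a large minus small difference of -0.100 to -0.082. The pseudocounts, the filter at 1 FPKM and subunits by structure left each count within 1.5 times.

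Same-numbered replicates had correlations of 0.147, -0.070, 0.123, -0.021 and 0.182 between their deviations from the group means over genes. Of the 5 LPS+ART libraries, 2 correlated best with their own number. Whether the numbers pair the samples cannot be told from these few weak correlations. With the replicate block, 25 Mrpl and 14 Mrps genes were lower. Of the 30 members named by the fixed rule, Mrpl48 alone lost its call (limma adjusted p = 0.070).

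Some log2 fold changes turned sign. After median-ratio scaling they were 0.37 for Mrpl12, 0.34 for Mrps33, 0.25 for Mrpl41, 0.22 for Mrpl58, 0.019 for Mrps12, 0.14 for Mrps18a, 0.11 for Mrps18b, 0.28 for Mrps18c, 0.17 for Mrps30, 0.20 for Ptcd3 and 0.0042 for Gadd45gip1. TMM gave 0.33, 0.30, 0.22 and 0.19 for Mrpl12, Mrps33, Mrpl41 and Mrpl58, 0.11, 0.079 and 0.25 for Mrps18a, Mrps18b and Mrps18c, 0.14 for Mrps30 and 0.17 for Ptcd3. Limma-voom gave 0.36, 0.35, 0.24 and 0.25 for Mrpl12, Mrps33, Mrpl41 and Mrpl58, 0.012 for Mrps12, 0.14, 0.12 and 0.31 for Mrps18a, Mrps18b and Mrps18c, 0.20 for Mrps30, 0.20 for Ptcd3 and 0.013 for Gadd45gip1. Loess gave 0.10, 0.27, 0.049 and 0.26 for Mrpl12, Mrps33, Mrpl41 and Mrpl58, 0.10, 0.054 and 0.29 for Mrps18a, Mrps18b and Mrps18c, 0.019 for Mrps22, 0.26 for Mrps30, 0.14 for Ptcd3, 0.10 for Gadd45gip1 and -0.18 for mt-Rnr2. Without LPS+ART replicates 3 and 4, Mrpl12, Mrps33, Mrps18c and Ptcd3 were at 0.10, 0.038, 0.025 and 0.0048 and Mrpl3 at -0.0017. With the vehicle pair averaged Mrpl3 was at -0.017. Leaving out single libraries moved Mrpl12 between -0.11 and 0.032, Mrps33 between -0.12 and 0.050, Mrpl3 between -0.026 and 0.062, Mrpl11 between -0.056 and 0.029, Mrps9 between -0.0034 and 0.091, Aurkaip1 between -0.022 and 0.051 and Tufm between -0.035 and 0.089. Depth limits most the members with few reads, of which the lowest had 152 in a library.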

Other observations

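The table also held 4 processed pseudogenes named after members, which the rule leaves out. Mrpl48-ps averaged 2.21 FPKM in LPS+ART and 1.73 FPKM in LPS+Vehicle, and Mrpl23-ps1 averaged 1.77 FPKM in LPS+ART and 2.14 FPKM in LPS+Vehicle. Mrps36-ps1 averaged 1.04 FPKM in LPS+ART and 0.751 FPKM in LPS+Vehicle, and Mrps36-ps2 averaged 0.653 FPKM in LPS+ART and 0.466 FPKM in LPS+Vehicle. Each pair of pseudogene and parent gene shares sequence, so reads may be split between them.

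Exon overlap with other genes was common among members. Of the 77 members, 24 share at least 5% of their exon bases with another gene, and of these 12 were lower and 1 higher as deposited. Of the 53 others, 27 were lower and 1 higher, where 52.9% of all genes were lower and 11.8% higher. After scaling, 6 of the 24 were lower and 6 higher, and 7 of the 53 were lower and 22 higher. The shares of all genes were then 30.3% lower and 29.9% higher. Mrpl46 and Mrps11, a head-to-head pair on chromosome 7 that joins both subunits, share exon bases with each other. Mrpl46 averaged 8.76 ± 2.53 FPKM in LPS+ART and 13.3 ± 0.856 FPKM in LPS+Vehicle, and Mrps11 averaged 3.57 ± 0.551 FPKM in LPS+ART and 4.30 ± 0.311 FPKM in LPS+Vehicle (n = 5 each, SD). Both were called lower as deposited (limma adjusted p = 0.00320 and 0.0462) and neither after scaling.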
